A study of Mus musculus with 10 samples.

Results

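The 10 genes described here encode enzymes that reduce or hydrolyse quinones, carbonyls and epoxides. They were given as a list of symbols and were matched to the Ensembl identifiers of the count table through GENCODE release M21, and all 10 were found among its 47729 genes. The list holds the quinone reductases Nqo1 and Nqo2, the carbonyl reductases Cbr1 and Cbr3, the aldo-keto reductases Akr1a1, Akr1b3, Akr1b8 and Akr1b10, the enone reductase Ptgr1 and the epoxide hydrolase Ephx1. RNA was sequenced from the RPE, the pigmented cell layer behind the retina, of 5 wild-type CD1 mice at P40. One eye of each mouse (GFP control) had received an adeno-associated virus (AAV) that expresses GFP from the human Best1 promoter, which is active in the RPE. The contralateral eye (Nrf2) had received that same GFP virus together with AAV Best1 hNrf2, which carries the human coding sequence of Nrf2. The groups therefore shared the GFP virus, and the Nrf2 eyes had an additional vector for which no matched amount of another vector was given, so the gene and the extra vector cannot be told apart. Per the labels, RNA was released from the eyecup after the retina had been taken out. Each group has 5 libraries, with 12298404 to 27310638 counts each.

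Quinones, aldehydes, unsaturated carbonyls and epoxides arise from oxidised lipids, from metabolism and from foreign compounds, and they bind to proteins and DNA. The enzymes on the list convert them to alcohols, hydroquinones, saturated carbonyls or diols, mostly at the expense of NADPH, and the products can then be conjugated and exported. Nrf2 is a transcription factor that binds antioxidant response elements next to many genes of this kind, of which Nqo1 is the textbook example. The RPE handles large amounts of retinal aldehyde and oxidised photoreceptor lipid.

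Of the 10 enzymes, 6 were higher in the Nrf2 eyes and 0 were lower at an adjusted p under 0.05 in edgeR's quasi-likelihood test with the mouse as a block, in a fit of 16362 genes of which 3.6% were called higher and 2.73% lower. The list was chosen with earlier results of these data known, so its counts beside those of all genes are a description. The genes that rose were Ptgr1, Cbr3, Akr1b8, Nqo1, Ephx1 and Cbr1. In these 6, every Nrf2 eye lay above every control eye, which held for 3.87% of all genes tested. The reverse, every Nrf2 eye below every control eye, held for 0 of the 10 enzymes and for 2.41% of all genes. Akr1a1, Akr1b3, Akr1b10 and Nqo2 did not pass the test, and their groups overlapped. At an unadjusted p under 0.05 in edgeR, 6 enzymes were higher and 1 (Nqo2) was lower, beside 9.58% and 9.53% of all genes. DESeq2 called 6 higher and 0 lower, beside 5.42% and 3.83% of the 19592 genes to which it gave an adjusted p. The median log2 fold change was 1.00 over the 10 enzymes and -0.01 over all genes tested. A log2 fold change here is the value fitted over the 5 mice, and CPM are counts scaled to a library total of 1000000. Values on the log2 CPM scale, including the within-mouse differences that give the standard error (SE), were in addition scaled by TMM and can differ somewhat from the log2 of the CPM ratios. In these bulk samples, fewer cells of a type and less RNA per cell cannot be told apart.

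**Figure D1:**
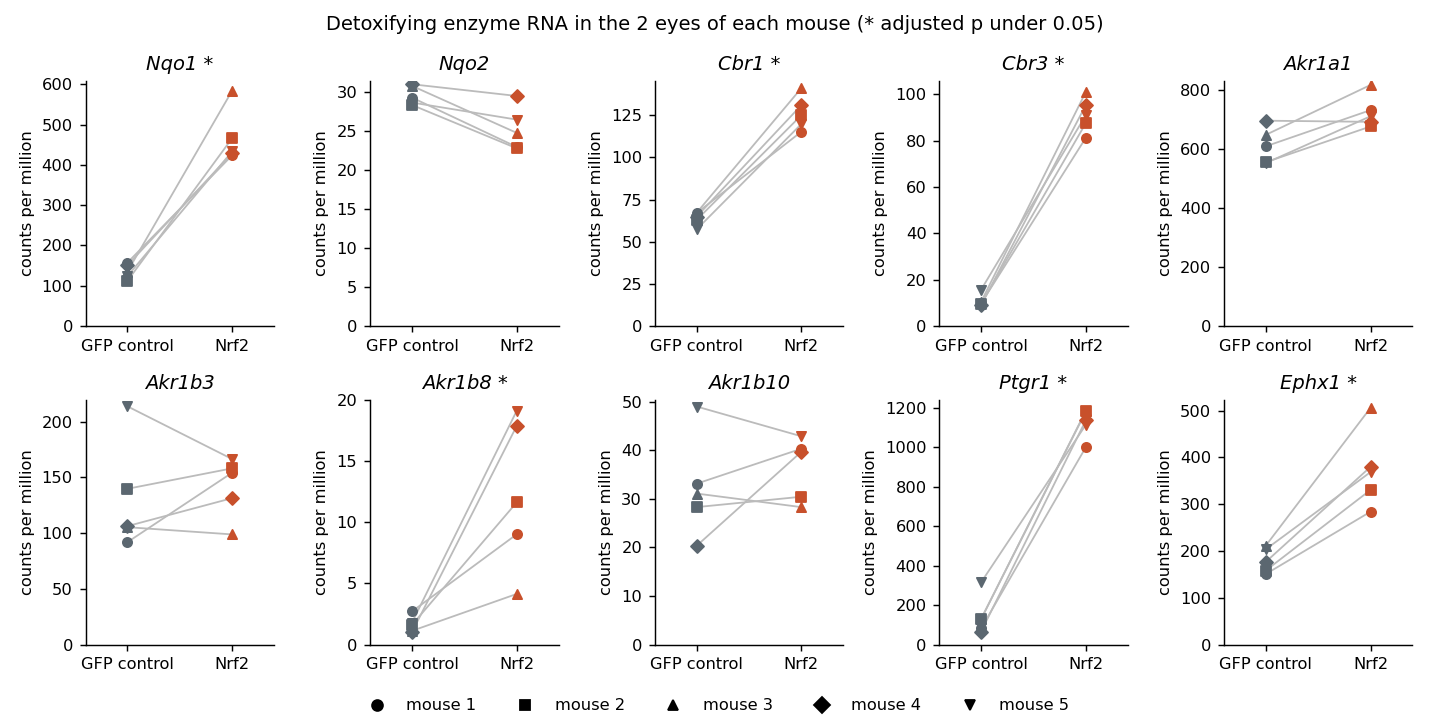
CPM of each enzyme in the GFP control eye and the Nrf2 eye of the 5 mice, on linear axes that start at 0. A symbol is a mouse, a grey line joins its eyes, and an asterisk marks an adjusted p under 0.05. In the 6 panels with an asterisk no Nrf2 eye reached down to the control eyes.

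Nfe2l2, the gene of Nrf2, had 81.7, 80.8, 91.9, 79.3 and 110 CPM in the control eyes, in the order of mice 1 to 5. There were 267, 352, 414, 371 and 360 CPM in the Nrf2 eyes, a log2 fold change of 1.97 (SE 0.11, n = 5 mice, edgeR adjusted p = 0.000299). The lowest Nrf2 eye was above the highest control eye. Reads of the human transgene may be part of these counts.

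The libraries were checked against cell type markers. All 12 RPE markers were found in every library, with a summed level of 22248 to 45211 CPM in the control eyes and 11427 to 29816 CPM in the Nrf2 eyes, and 6 of 12 were lower in the Nrf2 eyes by the edgeR test. The Nrf2 eye of mouse 3 had the highest sum of its group, against 11427 to 19876 CPM in the other 4 Nrf2 eyes. Over the 12 RPE markers the median log2 fold change was -0.56. Best1 itself was at most 1.503 CPM. Rpe65, the isomerase of the visual cycle, had 3492 ± 779 CPM in the control eyes and 547 ± 334 CPM in the Nrf2 eyes (log2 fold change -2.88, edgeR adjusted p = 0.0017). Other RPE markers were not lower in the mean. Ttr had 11543 ± 4768 CPM in control and 11751 ± 5384 CPM in Nrf2 eyes, and Tyrp1 1056 ± 411 and 1250 ± 443 CPM. Markers of macrophages and microglia were higher for 10 of 12 (162 to 287 CPM summed in control eyes and 352 to 1736 CPM in Nrf2 eyes), and the Nrf2 eye of mouse 5 was the highest. The median log2 fold change of these 12 genes was 4.47. The gene with the highest level of this list in the control eyes, Csf1r, had 196 ± 50.5 CPM there and 142 ± 58.9 CPM in the Nrf2 eyes and did not pass (edgeR adjusted p = 0.301), and C1qa had 4.88 ± 2.23 and 166 ± 107 CPM. Rod markers ranged from 40.8 to 19795 CPM in the control eyes and from 64.3 to 7635 CPM in the Nrf2 eyes, highest in both eyes of mouse 2, with 0 of 9 tested called by edgeR and 1 lower by DESeq2 and at an unadjusted p under 0.05. Markers of cones, endothelium, fibroblasts, skeletal muscle, Mueller glia and red blood cells had 0 calls in edgeR. At an unadjusted p under 0.05 these lists held 3 cone markers, all lower in the Nrf2 eyes, and DESeq2 called 1 of the cone markers. The skeletal muscle markers summed to 53.8 to 106 CPM in the control eyes, and to 5.01, 16.9, 389, 264 and 606 CPM in the Nrf2 eyes of mice 1 to 5, on both sides of the control range. No marker of any list was at 0 in all libraries. RPE markers that fell and macrophage markers that rose went along with the Nrf2 group, and the part of these shifts in the enzyme values was not tested. The 6 enzymes passed with the rod marker level as a covariate, with a log2 fold change of 2.36 for Akr1b8 and 2.90 for Ptgr1. That fit does not bear on the RPE and macrophage shifts, since no fit had the level of those markers as a covariate.

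Nqo1 (ENSMUSG00000003849, GRCm38 chr8:107388225-107403206, minus strand) encodes the NAD(P)H quinone reductase that takes quinones straight to hydroquinones without a semiquinone step. The control eyes, here and for each enzyme in the order of mice 1 to 5, held 157, 112, 135, 151 and 124 CPM. The Nrf2 eyes held 424, 467, 585, 430 and 434 CPM. The Nrf2 eye of mouse 3 was the highest and the other Nrf2 eyes lay close together, well clear of the control eyes. The mean rose from 136 ± 18.7 to 468 ± 67.4 CPM (SD over 5 eyes), and the fitted log2 change was 1.77 (SE 0.14, edgeR adjusted p = 0.000818). The ratio of Nrf2 to control eye was between 2.70 in mouse 1 and 4.33 in mouse 3, and the relative spread was alike in the groups, with a coefficient of variation of 13.7% in the control eyes and 14.4% in the Nrf2 eyes.

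Nqo2 (ENSMUSG00000046949, chr13:33964687-33988443, plus strand) encodes the related quinone reductase that draws electrons from dihydronicotinamide riboside rather than NADPH. Its control eyes held 29.2, 28.3, 30.7, 30.9 and 28.6 CPM. Its Nrf2 eyes held 22.9, 22.7, 24.7, 29.4 and 26.4 CPM. The Nrf2 eye was the lower of the pair in all 5 mice, but the ratio in mouse 4 was 0.951 and its Nrf2 eye lay within the control range. The log2 fold change was -0.25 (SE 0.03), which did not pass the test over all genes (edgeR adjusted p = 0.201). Nqo2 has an exon on the opposite strand of an exon of Serpinb6a, a protease inhibitor gene, and 17.5% of its 50-base stretches occur in that gene too. Serpinb6a was itself higher in the Nrf2 eyes, at 47.8 ± 9.50 CPM in control and 74.5 ± 8.16 CPM in Nrf2 eyes (log2 fold change 0.64, SE 0.12, edgeR adjusted p = 0.0211). The strand setting of the counting is not given in the sources used here, so how reads of the shared stretch were divided was not tested.

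The fold changes of the quinone reductases had opposite signs, with Nqo1 past the threshold and Nqo2 not. Per kilobase of exon, Nqo1 stood 11.95 ± 1.43 times as high as Nqo2 in the control eyes (10.3 to 14). In the Nrf2 eyes this ratio was 48.8 ± 9.21 (38.0 to 61.6), and the ranges of the groups did not meet.

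Cbr1 and Cbr3 are neighbours on chromosome 16, on the same strand and 72709 bases apart, and encode NADPH-dependent carbonyl reductases of the short-chain dehydrogenase family. Cbr1 (ENSMUSG00000051483, chr16:93605853-93610505) acts on prostaglandins, quinones and many foreign ketones. It stood at 67.0, 62.9, 67.1, 64.9 and 57.3 CPM in the control eyes and at 115, 125, 141, 131 and 120 CPM in the Nrf2 eyes. The eyes of each group were close together and the groups were far apart. Cbr1 rose from 63.8 ± 4.04 to 127 ± 10.1 CPM (SD over 5 eyes, log2 fold change 0.97, SE 0.04, edgeR adjusted p = 0.00108), and its ratio was between 1.72 and 2.10 in the 5 mice.

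Cbr3 (ENSMUSG00000022947, chr16:93683215-93690990) encodes the close relative of Cbr1 with a narrower range of substrates. Its control eyes held 9.79, 9.61, 10.5, 9.02 and 15.7 CPM. Its Nrf2 eyes held 81.4, 87.7, 101, 95.5 and 91.1 CPM. The control eye of mouse 5 was above the other control eyes, while the Nrf2 eyes were nearly level. Cbr3 rose from 10.9 ± 2.73 to 91.4 ± 7.54 CPM (log2 fold change 3.07, SE 0.16, edgeR adjusted p = 0.000142), which put it at rank 173 of the 16362 genes by log2 fold change, against rank 878 for Cbr1. The ratio was lowest in mouse 5, at 5.80, and highest in mouse 4, at 10.6.

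The carbonyl reductases came closer together in the Nrf2 eyes, where Cbr1 was still the higher of the pair in CPM in all 5. Their order per length depends on the annotated exons, which span 2554 bases for Cbr1 and 1254 for Cbr3. The RefSeq start of Cbr1 lies inside its GENCODE span, so its expressed length may be shorter and its level per length higher than given here. Per kilobase of exon, Cbr1 stood 3.01 ± 0.696 times as high as Cbr3 in the control eyes (1.79 to 3.53). In the Nrf2 eyes it stood at 0.680 ± 0.0216 of Cbr3 (0.646 to 0.700), the reverse of the order in CPM. The within-mouse differences, which do not depend on length, did not meet, with 0.86 to 1.09 on the log2 CPM scale for Cbr1 and 2.44 to 3.33 for Cbr3.

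The neighbours Cbr1 and Cbr3, the neighbours Akr1b8 and Akr1b10, and Nqo1 are shown with the 250 bases before their RefSeq start sites, the neighbours because their within-mouse differences did not overlap and Nqo1 as the textbook target of Nrf2. The windows were chr16:93607587-93607836 (plus) for Cbr1, chr16:93682969-93683218 (plus) for Cbr3, chr6:34353896-34354145 (plus) for Akr1b8, chr6:34383997-34384246 (plus) for Akr1b10 and chr8:107403206-107403455 (minus) for Nqo1. The sequences are from RefSeq on GRCm38.p6, 5′ to 3′ on the strand of the gene, and capitals mark GGGCGG on either strand, the letters of a GC box.
Cbr1: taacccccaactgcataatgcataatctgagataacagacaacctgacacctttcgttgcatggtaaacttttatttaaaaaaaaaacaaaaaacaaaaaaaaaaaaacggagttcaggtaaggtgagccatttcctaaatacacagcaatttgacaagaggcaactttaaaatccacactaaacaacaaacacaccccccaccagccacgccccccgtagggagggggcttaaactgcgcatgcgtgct
Cbr3: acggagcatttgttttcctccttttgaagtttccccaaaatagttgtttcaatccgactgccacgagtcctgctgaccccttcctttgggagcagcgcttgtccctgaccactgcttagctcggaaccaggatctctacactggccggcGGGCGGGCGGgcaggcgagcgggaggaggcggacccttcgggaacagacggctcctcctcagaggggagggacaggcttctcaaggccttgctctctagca
Akr1b8: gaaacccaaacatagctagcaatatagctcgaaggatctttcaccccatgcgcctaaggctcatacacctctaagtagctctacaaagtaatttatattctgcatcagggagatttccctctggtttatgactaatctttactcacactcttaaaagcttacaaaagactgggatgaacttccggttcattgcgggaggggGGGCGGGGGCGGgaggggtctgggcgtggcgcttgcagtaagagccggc
Akr1b10: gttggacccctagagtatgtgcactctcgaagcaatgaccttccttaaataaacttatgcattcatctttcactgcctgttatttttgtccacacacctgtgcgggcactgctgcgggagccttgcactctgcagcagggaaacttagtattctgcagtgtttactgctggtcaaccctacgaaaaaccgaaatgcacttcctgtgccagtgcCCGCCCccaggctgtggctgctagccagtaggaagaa
Nqo1: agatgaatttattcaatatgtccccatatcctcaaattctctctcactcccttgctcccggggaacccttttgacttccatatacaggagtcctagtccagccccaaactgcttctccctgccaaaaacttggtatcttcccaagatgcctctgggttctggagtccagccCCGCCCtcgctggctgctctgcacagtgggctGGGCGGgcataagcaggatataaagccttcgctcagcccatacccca

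Such windows were found for 9 of the 10 enzymes, with 2 windows for Nqo2, and Akr1b3 had no entry. GGGCGG was in 6 of the 10 windows and in 32.7% of 32851 windows of all genes. Those with it were Nqo1, Nqo2, Cbr3, Akr1b8, Akr1b10 and Ptgr1. Among the enzymes that rose, Nqo1, Cbr3, Akr1b8 and Ptgr1 had it and Cbr1 and Ephx1 did not. Among those that did not pass, Nqo2 and Akr1b10 had it and Akr1a1 did not. Whether GGGCGG bears on the response was not tested. TGACNNNGC, the core letters of the antioxidant response element, was in 0 of the 10 windows, searched on both strands, and in 10.2% of all windows. The variant TGAGNNNGC was in 0 of 10 and in 14.4% of all, and TGANTCA, the letters of an AP-1 site, was in 0 of 10 and in 6.75% of all. These counts describe the letters of 250 bases, and elements farther away were not searched.

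Akr1a1 (ENSMUSG00000028692, chr4:116636510-116651680, minus strand) encodes aldehyde reductase, which in mice also serves the synthesis of ascorbate. It was measured at 608, 554, 647, 695 and 551 CPM in the control eyes and at 731, 675, 816, 691 and 710 CPM in the Nrf2 eyes. The Nrf2 eye was the higher of the pair in 4 of 5 mice, with mouse 4 level at a ratio of 0.994. The log2 fold change of 0.23 (SE 0.08) did not pass (edgeR adjusted p = 0.317).

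Akr1b3, Akr1b8 and Akr1b10 lie side by side on chromosome 6, with 36640 bases between Akr1b3 and Akr1b8 and 15754 between Akr1b8 and Akr1b10. Akr1b8 (ENSMUSG00000029762, chr6:34354119-34368463, plus strand) encodes an aldo-keto reductase that acts on unsaturated aldehydes. Its control eyes held 2.70, 1.60, 1.12, 1.02 and 1.79 CPM, which was 16 to 53 counts. Its Nrf2 eyes held 9.02, 11.6, 4.14, 17.9 and 19.1 CPM, or 110 to 315 counts. The Nrf2 eyes of mice 4 and 5 were the highest and that of mouse 3 the lowest, yet it too was above all control eyes. Akr1b8 rose from 1.65 ± 0.674 to 12.4 ± 6.24 CPM (log2 fold change 2.79, SE 0.42, edgeR adjusted p = 0.00683), and its ratio varied from 3.34 in mouse 1 to 17.6 in mouse 4. It had the widest relative spread of the 10 enzymes among the Nrf2 eyes, with a coefficient of variation of 50.5%.

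Akr1b10 (ENSMUSG00000061758, chr6:34384218-34396950, plus strand), a close relative in the same subfamily, stood at 33.1, 28.3, 31.1, 20.3 and 49.0 CPM in the control eyes. The Nrf2 eyes held 40.3, 30.4, 28.3, 39.7 and 42.9 CPM, which lay within the control range. The Nrf2 eye was the higher in 3 of 5 mice and the log2 fold change was 0.19 (SE 0.21, edgeR adjusted p = 0.677). The within-mouse differences on the log2 CPM scale were -0.28 to 0.90 for Akr1b10 and 1.77 to 3.94 for Akr1b8, which did not overlap. Per kilobase of exon, Akr1b10 stood 8.91 ± 2.80 times as high as Akr1b8 in the control eyes (5.19 to 11.8) and 1.56 ± 0.846 times as high in the Nrf2 eyes (0.941 to 2.90).

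Akr1b3 (ENSMUSG00000001642, chr6:34302434-34317478, minus strand) encodes the mouse aldose reductase, which turns glucose into sorbitol and also reduces aldehydes from lipids. It was measured at 91.8, 140, 105, 106 and 214 CPM in the control eyes and at 154, 158, 98.8, 131 and 166 CPM in the Nrf2 eyes. Mouse 5, whose control eye was the highest, had the higher value in the control eye, while mouse 1 went the other way. The log2 fold change was 0.14 (SE 0.21, edgeR adjusted p = 0.771), and the Nrf2 eye was the higher in 3 of 5 mice. Of its 50-base stretches 13.6% occur in other genes too, most of them (12.8%) in Gm38056, so its counts are less certain than those of Nqo1 and Ptgr1, which share 0% of theirs.

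Ptgr1 (ENSMUSG00000028378, chr4:58965439-58987119, minus strand) encodes prostaglandin reductase 1, which saturates the double bond of unsaturated aldehydes and ketones and inactivates leukotriene B4. Its control eyes held 81.9, 129, 130, 65.9 and 316 CPM. Its Nrf2 eyes held 1002, 1186, 1183, 1139 and 1116 CPM. The control eye of mouse 5 was far above the other control eyes, and the Nrf2 eyes were nearly level. Mean Ptgr1 rose from 145 ± 99.8 to 1125 ± 75.2 CPM (SD over 5 eyes). Its log2 fold change was 3.18 (SE 0.39, edgeR adjusted p = 0.00255), rank 161 of all genes tested. It was larger than that of Cbr3 in this fit, but smaller without the replicate block (2.93 against 3.04), with the rod marker covariate (2.90 against 2.97), without mouse 1 (3.08 against 3.09) and without mouse 4 (2.99 against 3.04). The coefficient of variation was 69.0% in the control eyes and 6.68% in the Nrf2 eyes. Mouse 5 had the lowest ratio, 3.53, and mouse 4 the highest, 17.3. With the Nrf2 eyes nearly level, the ratio was the higher the lower the control eye of the mouse.

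Ephx1 (ENSMUSG00000038776, chr1:180976210-181020904, minus strand) encodes microsomal epoxide hydrolase, which opens reactive epoxides to diols. It stood at 151, 158, 211, 176 and 203 CPM in the control eyes and at 284, 331, 506, 380 and 369 CPM in the Nrf2 eyes. Mouse 3 was the highest in both groups, and the groups did not overlap. Ephx1 rose from 180 ± 26.8 to 374 ± 82.9 CPM (log2 fold change 1.03, SE 0.08, edgeR adjusted p = 0.00221), with a ratio of 1.81 to 2.40. An unprocessed pseudogene, Gm36961, overlaps it on the same strand and had 0 counts in all libraries.

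**Figure D2:**
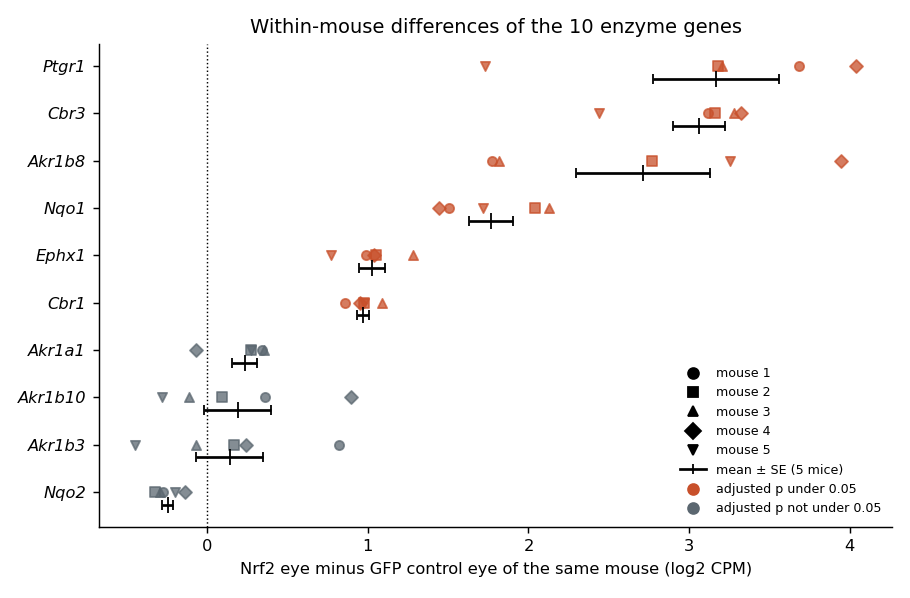
Nrf2 eye minus GFP control eye of the same mouse, in TMM-scaled log2 CPM, for the 10 enzymes ordered by their mean. Symbols are mice, and the bar under each row is the mean ± SE of 5 mice. All 5 mice lie to the right of 0 for the 6 enzymes in orange, and mouse 5 is the lowest for Ptgr1, Cbr3, Ephx1, Akr1b10 and Akr1b3.

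Mouse 5 gave the highest control CPM for Ptgr1, Cbr3, Akr1b3 and Akr1b10, and mouse 3 the highest Nrf2 CPM for 5 of the 10 enzymes. In each of the fits that left out both eyes of 1 mouse, the same 6 genes passed. Without mouse 5 the log2 fold change of Ptgr1 was 3.53 and that of Cbr3 was 3.23. The 6 enzymes that rose fell into levels of response by their within-mouse differences. Cbr1 and Ephx1 had 0.77 to 1.28 on the log2 CPM scale, Nqo1 had 1.44 to 2.13, and Ptgr1, Cbr3 and Akr1b8 had 1.73 to 4.04. The ranges of Ptgr1 and Akr1b8 overlapped with that of Nqo1 and the range of Cbr3 did not.

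Compared per kilobase of exon, the enzymes covered a wide range of levels. Akr1a1 was the highest in the control eyes at 222 ± 22.3 CPM per kilobase (SD, n = 5), followed by Ephx1 at 92.3 ± 13.8, Nqo1 at 87.5 ± 12.02 and Ptgr1 at 63.0 ± 43.4. Akr1a1 was clear of Ephx1, but the ranges of Ephx1 and Nqo1 overlapped, as did those of Nqo1 and Ptgr1. Clear of Ptgr1 came Cbr1 at 25.0 ± 1.58, Akr1b3 at 15.7 ± 5.88, Akr1b10 at 9.15 ± 2.97, Cbr3 at 8.71 ± 2.17 and Nqo2 at 7.31 ± 0.301 CPM per kilobase, and each of these overlapped with the next. Akr1b8 was the lowest at 1.10 ± 0.450 and stood apart from Nqo2. The exons annotated for Akr1b3 span 8384 bases together, which lowers its value on this scale.

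In the Nrf2 eyes Ptgr1 was the highest at 490 ± 32.7 CPM per kilobase and stood apart from Nqo1 at 301 ± 43.4. Nqo1 overlapped with Akr1a1 at 263 ± 20.04, and Akr1a1 with Ephx1 at 192 ± 42.5. Cbr3 at 72.9 ± 6.01 was clear of Ephx1 and stood above Cbr1 at 49.5 ± 3.95 without overlap on this scale, whereas in CPM Cbr1 stood above Cbr3 without overlap. Cbr1 was clear of Akr1b3. Akr1b3 at 16.9 ± 3.26, Akr1b10 at 10.3 ± 1.84, Akr1b8 at 8.24 ± 4.16 and Nqo2 at 6.24 ± 0.688 CPM per kilobase each overlapped with the next. Ptgr1 moved from the fourth place to the first, Cbr3 from the eighth to the fifth by annotated exon length, and Nqo2 from the ninth to the last.

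**Figure D3:**
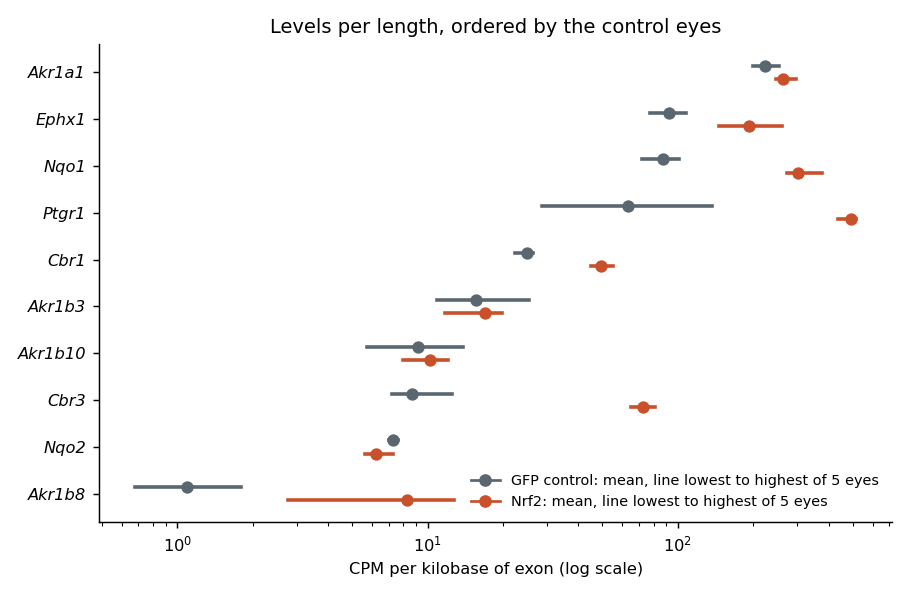
CPM per kilobase of exon on a log axis, with the mean and the range of 5 eyes in each group, ordered by the control eyes. Ptgr1 and Cbr3 move past enzymes that stood above them in the control eyes on this scale (in CPM Cbr3 stays under Cbr1), and Akr1b8 reaches the range of Akr1b10 and Nqo2.

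The summed level of the 10 enzymes was 532 ± 49.8 CPM per kilobase in the control eyes (476 to 605) and 1411 ± 124 in the Nrf2 eyes (1272 to 1613). Akr1a1 made up 42.1% ± 5.43 of this sum in the control eyes and 18.7% ± 1.26 in the Nrf2 eyes, although its own level did not pass the test. Ptgr1 went from 11.5% ± 6.77, with 22.7% in mouse 5, to 34.8% ± 1.91. Nqo1 made up 16.6% ± 2.80 and 21.3% ± 1.38, and Ephx1 17.3% ± 1.49 and 13.5% ± 1.80. In the control eyes Ptgr1 stood at 0.296 ± 0.227 of Akr1a1, and in the Nrf2 eyes it stood at 1.87 ± 0.184 times Akr1a1. These shares describe the list and have no test of their own.

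Among 32 other genes for related enzymes, 25 had enough counts to be tested, 2 were higher and 0 lower in edgeR, with a median log2 fold change of 0.05. At an unadjusted p under 0.05 these counts were 5 and 1, and DESeq2 called 4 higher and 0 lower. Over all genes the shares called higher and lower were 3.6% and 2.73% in edgeR, 9.58% and 9.53% at an unadjusted p under 0.05, and 5.42% and 3.83% in DESeq2. Akr1c14, an aldo-keto reductase that reduces ketosteroids to hydroxysteroids, had 0.915 ± 0.274 CPM in the control eyes and 11.1 ± 8.29 CPM in the Nrf2 eyes (log2 fold change 3.27, SE 0.62, edgeR adjusted p = 0.0159). Its groups did not overlap, but the call was lost without mouse 2 (adjusted p = 0.0612), without mouse 4 (0.0744) and with the rod marker level as a covariate (0.101). The log2 fold changes in these fits were 3.02, 3.16 and 2.99. Cyb5r3, which encodes the cytochrome b5 reductase, went from 181 ± 12.3 to 279 ± 29.1 CPM (log2 fold change 0.61, SE 0.05, edgeR adjusted p = 0.00866) and was higher in 5 of 5 mice.

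Of the other aldo-keto reductases, 13 were listed and 6 tested, and 1 of them, Akr1c14, passed. DESeq2 called 2, the other being Akr1c18 (log2 fold change 1.06, edgeR adjusted p = 0.212), which was named after its values were seen. The log2 fold changes were -0.02 for Akr1b7, which belongs to the same subfamily as Akr1b8, 0.03 for Akr1e1 and 0.15 for Akr7a5. Of 5 other short-chain carbonyl reductases 0 passed in edgeR and 1, Cbr2, in DESeq2 and at an unadjusted p under 0.05. Cbr2, which encodes a mitochondrial carbonyl reductase, had 766 ± 396 CPM in the control eyes and 1262 ± 379 CPM in the Nrf2 eyes and was higher in 5 of 5 mice (log2 fold change 0.79, SE 0.31, edgeR adjusted p = 0.141). Dhrs4 had -0.01 and Dcxr 0.33.

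All 4 of the other epoxide hydrolases had a positive log2 fold change, with a median of 0.32, as had 7969 of the 16362 genes tested. In edgeR 0 passed, with 1 at an unadjusted p under 0.05, and in DESeq2 0 passed. Ephx2, the soluble epoxide hydrolase, had 0.38 (edgeR adjusted p = 0.153, higher in 5 of 5 mice) and Ephx3 0.27. Lta4h, which makes leukotriene B4, had 0.01, and its direction turned in other fits. The 5 other medium-chain reductases that act on enones or quinones had a median of -0.13, and 0 passed in edgeR, at an unadjusted p under 0.05 or in DESeq2. Ptgr2, the relative of Ptgr1, had -0.21, Cryz -0.24 and Cryzl1 -0.13. Por and Cyb5r1, flavin enzymes that pass single electrons and can turn quinones to semiquinones, had 0.19 and 0.05. Of the glyoxalases, which clear methylglyoxal, Glo1 had 0.01 and Hagh -0.31 (edgeR adjusted p = 0.161, lower in 5 of 5 mice).

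**Figure D4:**
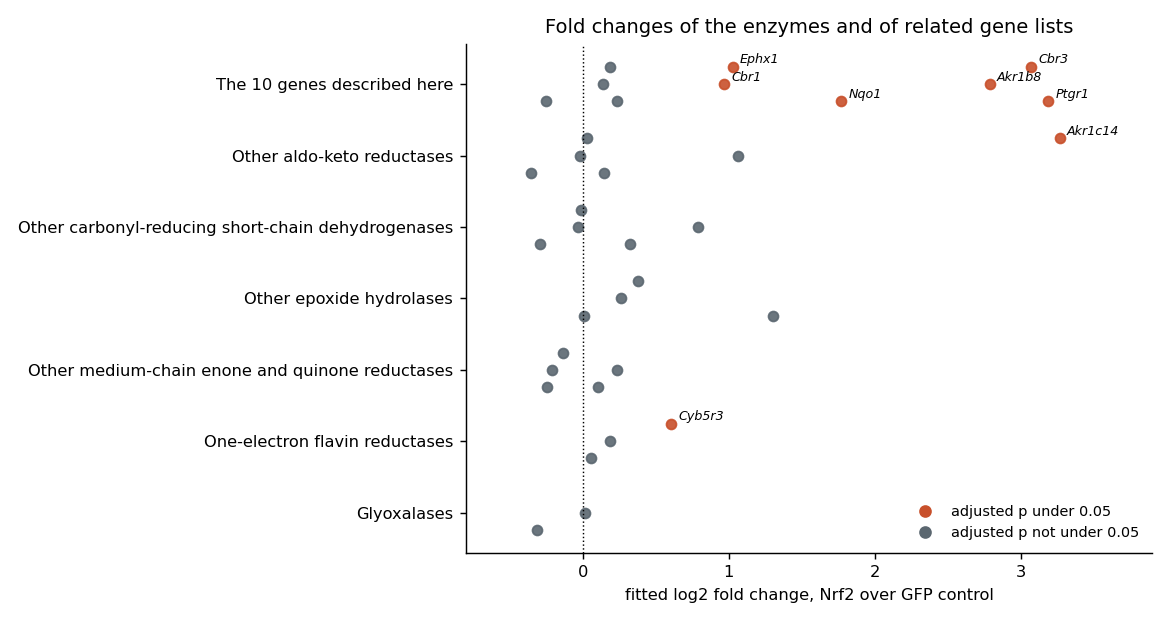
Fitted log2 fold change of the Nrf2 eyes over the GFP control eyes for the 10 enzymes and for 6 lists of related genes, 1 point per gene tested, with those at an adjusted p under 0.05 in orange. The 10 enzymes hold 6 orange points and the 6 lists together hold 2, Akr1c14 and Cyb5r3. The enzymes and the lists were chosen with earlier results of these data known, so this contrast is a description and not a test.

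The genes whose log2 CPM followed that of Nqo1 most closely over the 10 libraries, outside the enzymes described, were Gsta1, a glutathione transferase (Pearson's r = 0.990), Taldo1, an enzyme of the pentose phosphate pathway (0.988), and E2f6, a transcriptional repressor (0.987). Their log2 fold changes were 2.98, 1.02 and 1.17. The 10 points fall into the groups of the study, so these values describe the shared difference between groups and carry no test.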

How the data were processed

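RNA was sequenced from the RPE of 5 CD1 mice, with 2 libraries per mouse. According to the study's methods, reads were mapped by the authors to mm10 with STAR and counted with featureCounts, and counts were estimated in parallel with Salmon (0.8.2 in the submitters' processing notes) for DESeq2. The deposited values are whole-number counts per Ensembl gene without normalization. The strand setting, and which of the counts were deposited, are not given in the sources used here. Sequencing took 2 runs, which the labels do not tell apart by group.

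Libraries of each mouse were paired by the individual given in the labels. Deviations from the group means correlated between the eyes of a mouse (Pearson's r 0.216 to 0.777 across genes) against -0.48 to 0.375 (median -0.13) between mice, and these ranges overlap. The test was that of edgeR 4.0.16 under R 4.3.3 (filterByExpr, TMM, quasi-likelihood F test, mouse as a block, two-sided, Benjamini-Hochberg over 16362 genes, threshold 0.05). Per-mouse log2 CPM were TMM-scaled and used a prior count of 2. A count of 0 allows up to 3 counts, or 0.110 to 0.244 CPM, for counting error only. All pairs of libraries differed beyond sampling noise (chi-square at least 34.5 per degree of freedom). The fits were tested on simulated data with the same spread for every gene and no difference between mice. Such data cannot check the mouse block or the spread of single genes. DESeq2 1.42.0, RLE scaling, other count filters, no block, a rod marker covariate and leaving out each mouse were tried as alternatives.

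The 10 enzymes and all lists, including the markers of 9 cell types, were chosen with earlier results of these data known. All 10 enzymes are named. Of the related lists, the genes called and up to 3 others per list with the largest mean count are named, together with the 3 genes most correlated with Nqo1. Exon lengths, positions and symbols are from GENCODE M21, which had 99.1% of the identifiers.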

Additional observations from a re-analysis of the deposited data

Results flagged for a closer look

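Nqo1 in the Nrf2 eye of mouse 3, at 9.27 on the TMM-scaled log2 CPM scale, stood apart from the other 4 Nrf2 eyes. Its gap to the nearest of them was 0.792 of the range of the group, above Dixon's critical value of 0.71 for 5 samples. The 10 enzymes gave 20 groups to check, of which chance alone sets apart about 1 in 20, and 1 was found. The same eye had the highest CPM of its group for 5 of the 10 enzymes, and its RPE markers summed to 29816 CPM against 11427 to 19876 CPM in the other Nrf2 eyes. The part of this in the value was not tested. Without mouse 3 the log2 fold change of Nqo1 was 1.74 (edgeR adjusted p = 0.00404).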

How the results depend on the processing

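The same 6 enzymes passed, all higher, under each of the 11 alternatives, and of 110 values of the 10 enzymes 109 kept their direction and side of the threshold. The exception was Akr1b10, at -0.031 with the rod marker covariate. The mouse pairing changed no call of an enzyme, since the fit without the replicate block also called 6, and it called 755 genes in all. Over all genes the count of 1036 became 1812 with DESeq2, 441 with the rod marker covariate and 584 to 857 when 1 mouse was left out (584 without mouse 2, 613 without mouse 4, 683 without mouse 5). The count of related enzymes called, 2, became 4 with DESeq2 (these 2 with Akr1c18 and Cbr2), 1 with the rod marker covariate and 1 to 2 when 1 mouse was left out. Among related genes near 0 the direction turned for Akr1b7 (-0.22 to 0.22 when 1 mouse was left out, above 0 without mouse 2, 3 or 5), Dhrs4 (0.079 with the rod marker covariate, -0.028 to 0.097 when 1 mouse was left out), Lta4h (-0.0075 without the replicate block, -0.17 with the rod marker covariate, -0.091 to 0.11 when 1 mouse was left out), Cyb5r1 (-0.0054 to 0.14 when 1 mouse was left out) and Glo1 (-0.022 to 0.11 when 1 mouse was left out). The cause was not tested. Leaving out Nrf2 and control eye of 1 mouse moved Akr1b8 between 2.52 and 3.10 and Ptgr1 between 2.99 and 3.53. RLE scaling and the other filters moved the median of all genes by less than 0.05. With 16 to 53 counts in the control eyes, Akr1b8 was the enzyme whose values depth limits most.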
